A study of Homo sapiens with 12 samples.

Results

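RNA of 10 genes that mark the epithelial or the mesenchymal state was followed in RCC4 cells in which the hypoxia-inducible factors were silenced. The genes were the cadherins CDH1, CDH2, CDH6 and CDH16, the intermediate filament gene VIM, and the transcription factors ZEB1, ZEB2, SNAI1, SNAI2 and TWIST1. They were taken by their symbols, and all 10 had a row among the 23106 symbols counted in each library. RCC4 is an established line from a clear cell renal cell carcinoma (ccRCC) that lacks functional VHL, so that both HIF-1 and HIF-2 remain active under normal oxygen. All libraries came from this 1 line.

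PolyA RNA was sequenced 48 h after transfection of siRNA pools at a total of 2 nM, with 3 libraries in each of 4 groups. The control group received 2 nM of non-targeting siRNA. The HIF1A siRNA group received 1 nM against HIF1A with 1 nM of non-targeting siRNA, and the HIF2A siRNA group received 1 nM against EPAS1, the gene of HIF-2α, likewise with 1 nM of non-targeting siRNA. The double knockdown group received 1 nM of each HIF siRNA and no non-targeting siRNA.

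Cadherins are calcium-dependent adhesion proteins that join neighbouring cells and are anchored to actin through catenins. In epithelial-mesenchymal transition (EMT), E-cadherin is replaced by N-cadherin, vimentin filaments appear, and factors of the ZEB, SNAI and TWIST families repress CDH1 by binding E-boxes in its promoter. The proximal tubule, from which ccRCC is thought to arise, is unusual among epithelia in carrying N-cadherin and cadherin-6, so that N-cadherin alone does not mark a mesenchymal cell in this tissue.

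The total count lay between 13263168 and 20451433 per library. Levels are given as CPM, a gene's count relative to the library total after TMM scaling, which corrects for library composition. HIF1A measured 96.7 ± 33.6 CPM in the control group (SD, n = 3), 18.3 ± 3.62 CPM after HIF1A siRNA, 121 ± 13.3 CPM after HIF2A siRNA and 28.7 ± 4.09 CPM in the double knockdown. EPAS1 measured 157 ± 16.9, 114 ± 17.7, 10.1 ± 1.53 and 8.94 ± 2.16 CPM in the same order, so each siRNA lowered its target in the libraries that carry its label. EPAS1 was also below every control library in the 3 HIF1A siRNA libraries, a separation that 4.24% of all genes showed in this direction. That difference did not pass the test (edgeR, BH-adjusted p = 0.28). HIF1A in the double knockdown was 1.58-fold its level after HIF1A siRNA, which did not pass the test either (edgeR, BH-adjusted p = 0.18). Within pairs the double knockdown held HIF1A at 20, 55 and 27% of control. Comparisons of the double knockdown with HIF1A siRNA thus had unequal mean HIF1A levels, and the effect of this was not tested. Markers of the tubule and of ccRCC were all present, with PAX8 at 197 to 315 CPM, KRT8 at 367 to 570 CPM and LHX1 at 0.93 to 3.31 CPM. They were not all steady between groups. The ccRCC marker CA9 measured 226 ± 73.2 CPM with control siRNA, 18.7 ± 8.69 CPM after HIF1A siRNA, 305 ± 104 CPM after HIF2A siRNA and 13 ± 5.43 CPM in the double knockdown. PECAM1, PTPRC and CD3E, which define endothelial and immune cells, had no count in any library, and COL1A2 and DCN, which define fibroblasts, had at most 1 count. Other genes of those marker lists were present, with CD68 at 32.6 to 65.1 CPM, COL1A1 at 16.6 to 71.1 CPM, RGS5 at 1.73 to 10.4 CPM and PDGFRB at 0.647 to 8.58 CPM.

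VIM and CDH2 were the most abundant of the 10 genes, and CDH1 and TWIST1 were close to absent or undetected. Levels of different genes were compared per kilobase of their MANE Select transcript, a reference isoform of the hg38 annotation that can differ from the isoforms made here. VIM was the most abundant member, at 1882 CPM per kb on average over the 12 libraries, above 99.9% of the 17379 genes with a length. CDH2 followed at 95.8 CPM per kb, above 95.6% of genes. In the control libraries VIM, CDH2 and SNAI2 did not overlap each other or any lower gene, with SNAI2 at 12.95 ± 1.77 CPM per kb. CDH16 (9.20 ± 3.19), ZEB2 (7.07 ± 1.25), CDH6 (6.02 ± 1.91), SNAI1 (4.26 ± 0.277) and ZEB1 (3.89 ± 1.28) formed a lower group in which each gene overlapped its neighbour in level per kb. CDH1 was at 0.0400 CPM per kb over all libraries and TWIST1 was at 0.

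**Figure D1:**
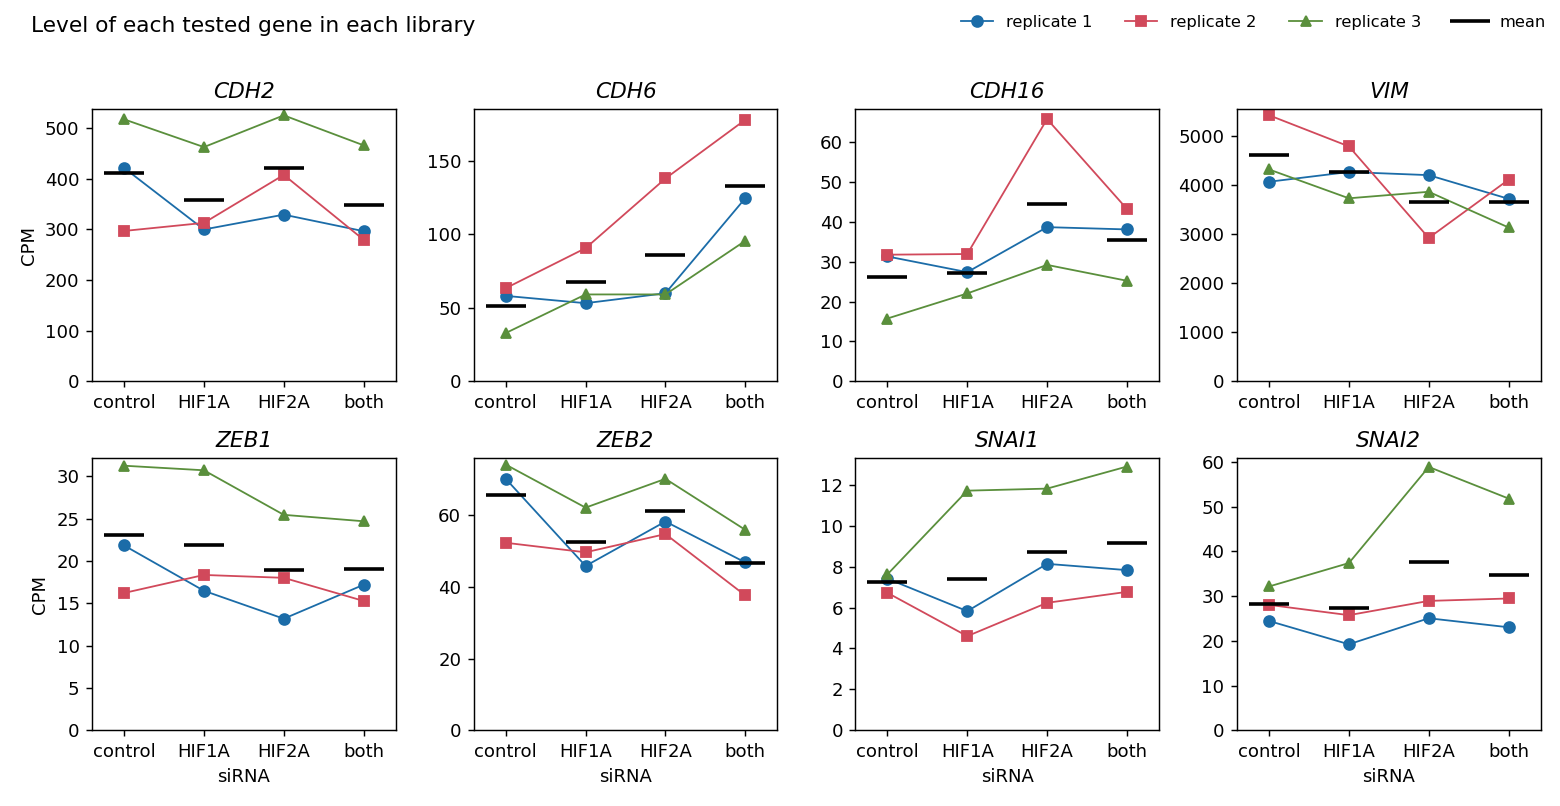
Level in CPM (vertical axes, linear from 0) of the 8 genes that passed the expression filter in each of the 12 libraries, by siRNA (horizontal axes). Lines join libraries with the same replicate number, and black bars are group means. CDH6 was at 95.4 to 178 CPM in the double knockdown and at 32.8 to 63.3 CPM with control siRNA.

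Differences between groups were tested with edgeR's quasi-likelihood test that had replicate number as a blocking factor, with Benjamini-Hochberg (BH) adjustment over all genes fitted. A gene was called at an adjusted p under 0.05. CDH1 and TWIST1 had too few counts to enter these fits, so that 8 of the 10 genes were tested. HIF1A siRNA called 0 of the 8 by this test, against 1.17% of the 12830 genes fitted (7.33% at an unadjusted p under 0.05). HIF2A siRNA also called 0 of the 8, against 0.0857% of genes (5.38% at an unadjusted p under 0.05). Between the single siRNAs 0 of the 8 were called, against 1.5% of genes (10.2% at an unadjusted p under 0.05). Of the 8, those at an unadjusted edgeR p under 0.05 were 1 with HIF1A siRNA (ZEB2) and 2 with HIF2A siRNA (CDH6 and CDH16). Between the single siRNAs they were 2 (CDH16 and SNAI2). The double knockdown called 2 of the 8, CDH6 as higher and ZEB2 as lower, against 10.3% of 13000 genes, of which 3.86% of all genes were higher and 6.42% lower. Against that background a count of 2 in 8 is no result about the set as a whole. With DESeq2, HIF1A siRNA again called none of the 8 and HIF2A siRNA called CDH16. DESeq2 called CDH16 in the double knockdown as well (adjusted p = 0.049).

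CDH6, cadherin-6 or K-cadherin, is an adhesion molecule of the developing and adult proximal tubule. It measured 58.0, 63.3 and 32.8 CPM in control replicates 1, 2 and 3, and 53.1, 90.5 and 59.0 CPM with HIF1A siRNA. With HIF2A siRNA it measured 59.8, 138 and 59.0 CPM, and in the double knockdown 124, 178 and 95.4 CPM. Every double knockdown library lay above every control library, whereas HIF2A siRNA replicate 2 lay within the range of the double knockdown. Such a separation from control siRNA, upward and without overlap, was found for 7.08% of all genes. Within pairs of the same replicate number the double knockdown was at 214, 281 and 291% of control.

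CDH6 was 2.56-fold higher in the double knockdown than with control siRNA, a log2 fold change of 1.36 (SE 0.175, 95% confidence interval 0.98 to 1.73; edgeR, BH-adjusted p = 0.00016). Against HIF1A siRNA the double knockdown was 1.94-fold higher (log2 0.96, SE 0.173; edgeR, BH-adjusted p = 0.011), where CDH6 was the 1 member called, beside 1.4% of all genes called and 0.431% called as higher. Against HIF2A siRNA it was 1.61-fold higher (log2 0.69, SE 0.172; edgeR, BH-adjusted p = 0.038), again the 1 member called, beside 4% of all genes called and 0.785% called as higher. The single siRNAs gave log2 fold changes of 0.40 (SE 0.197) for HIF1A and 0.67 (SE 0.197) for HIF2A, which did not pass the test (edgeR, BH-adjusted p = 0.74 and 0.6). The 2 single siRNAs did not differ detectably from each other in CDH6, with a log2 difference of -0.28 (95% confidence interval -0.70 to 0.15).

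The interaction asks whether the double knockdown differs from the sum of the single effects on the log2 scale. For CDH6 it was 0.29 (95% confidence interval -0.24 to 0.81; edgeR, BH-adjusted p = 1), an interval that holds 0 and also departures from additivity of up to 0.81. By edgeR the interaction was called for 0 of 13000 genes, with 2.45% at an unadjusted p under 0.05, and DESeq2 called 11. Without the replicate block the change of CDH6 in the double knockdown had the same size (log2 1.37) and did not pass the test (SE 0.379; edgeR, BH-adjusted p = 0.12). The single-siRNA values moved when libraries were left out: without control replicate 1 edgeR called CDH6 for HIF1A siRNA (log2 0.71, BH-adjusted p = 0.032) and for HIF2A siRNA (log2 0.97, BH-adjusted p = 0.014), and without replicate 1 of every group it called CDH6 for HIF2A siRNA (log2 1.02, BH-adjusted p = 0.023). The difference between the double knockdown and HIF1A siRNA lost its call in 6 of 22 alternative fits, among them those without HIF1A siRNA replicate 1 or 2 or double knockdown replicate 1 or 3 (BH-adjusted p = 0.064 to 0.11). The difference between the double knockdown and HIF2A siRNA lost its call in 10 of 22, among them those without any 1 double knockdown library (BH-adjusted p = 0.098 to 0.17).

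CDH16, Ksp-cadherin, is restricted to tubule epithelium in the kidney. It measured 31.3, 31.8 and 15.8 CPM with control siRNA and 27.4, 31.9 and 22.04 CPM with HIF1A siRNA. With HIF2A siRNA it measured 38.7, 65.8 and 29.2 CPM, and in the double knockdown 38.1, 43.2 and 25.2 CPM. All 3 HIF2A siRNA libraries and all 3 double knockdown libraries were above the control of the same number, but in each case the ranges overlapped because control replicate 3 was low. The log2 fold change was 0.09 (SE 0.177) for HIF1A siRNA, 0.76 (SE 0.177) for HIF2A siRNA and 0.46 (SE 0.156) for the double knockdown (edgeR, BH-adjusted p = 0.96, 0.27 and 0.077). None passed the threshold. HIF2A siRNA was called for CDH16 in 3 of 20 alternatives. These were DESeq2 (adjusted p = 0.023), edgeR without the filter on low counts (adjusted p = 0.036) and edgeR without control replicate 1 (adjusted p = 0.042). The double knockdown was called for CDH16 in 5 of 22 alternatives. Among them were DESeq2 (adjusted p = 0.049), edgeR with only the libraries compared (adjusted p = 0.013) and edgeR without control replicate 1 (adjusted p = 0.035).

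CDH2, N-cadherin, was the most abundant of the 4 cadherins in every library. It measured 421, 297 and 517 CPM with control siRNA, 300, 313 and 463 CPM with HIF1A siRNA, 329, 408 and 525 CPM with HIF2A siRNA, and 296, 280 and 466 CPM in the double knockdown. Replicate 3 was highest in every group and all groups overlapped. The log2 fold changes were -0.20 (95% confidence interval -0.52 to 0.11) for HIF1A siRNA, 0.04 (-0.27 to 0.36) for HIF2A siRNA and -0.26 (-0.53 to 0.01) for the double knockdown (edgeR, BH-adjusted p = 0.88, 0.99 and 0.22). A change of CDH2 by a factor near that of CDH6 in the double knockdown therefore lies outside these intervals.

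CDH1, E-cadherin, the defining adhesion molecule of most epithelia, was close to absent. Its counts were 1, 1 and 0 with control siRNA, 6, 0 and 3 after HIF1A siRNA, 9, 5 and 3 after HIF2A siRNA, and 6, 5 and 2 in the double knockdown. The HIF2A siRNA and double knockdown libraries all held more counts than any control library, although the largest value was 9 reads. Among genes that passed the expression filter, upward separations in CPM from control siRNA were found for 2.44% with HIF2A siRNA and for 7.08% in the double knockdown. CDH1 did not pass that filter, so these shares are not a background rate for a gene with so few counts. Summed over libraries and scaled to the total counts, the ratio to control was 4.42 (95% interval 0.915 to 42) for HIF1A siRNA, 8.36 (1.98 to 74.6) for HIF2A siRNA and 6.35 (1.44 to 58) for the double knockdown. These intervals cover counting error only and rest on 2 reads in the control group. When edgeR was run without the filter, so that CDH1 could be fitted, the adjusted p-values were 0.98, 0.99 and 0.39.

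CDH2 held most of the summed level of the 4 cadherins in every group. It made up 86.2 ± 6.67% of their summed CPM per kb (SD, n = 3) in the control group, 83.1 ± 5.31% after HIF1A siRNA, 80.1 ± 8.14% after HIF2A siRNA and 74.6 ± 9.86% in the double knockdown. CDH6 made up 5.44 ± 2.62, 7.61 ± 2.73, 7.66 ± 3.47 and 14.1 ± 5.75% in the same order. The CDH6 share was 2.78 to 8.01% with control siRNA and 8.21 to 19.7% in the double knockdown, whereas the CDH2 shares overlapped, at 79.9 to 93.2% and 65.9 to 85.3%. CDH16 made up 8.32 ± 4.06% with control siRNA and 11.3 ± 4.22% in the double knockdown, with overlapping ranges, and CDH1 stayed under 0.1% in every library. The shares are given as a description, with no test.

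**Figure D2:**
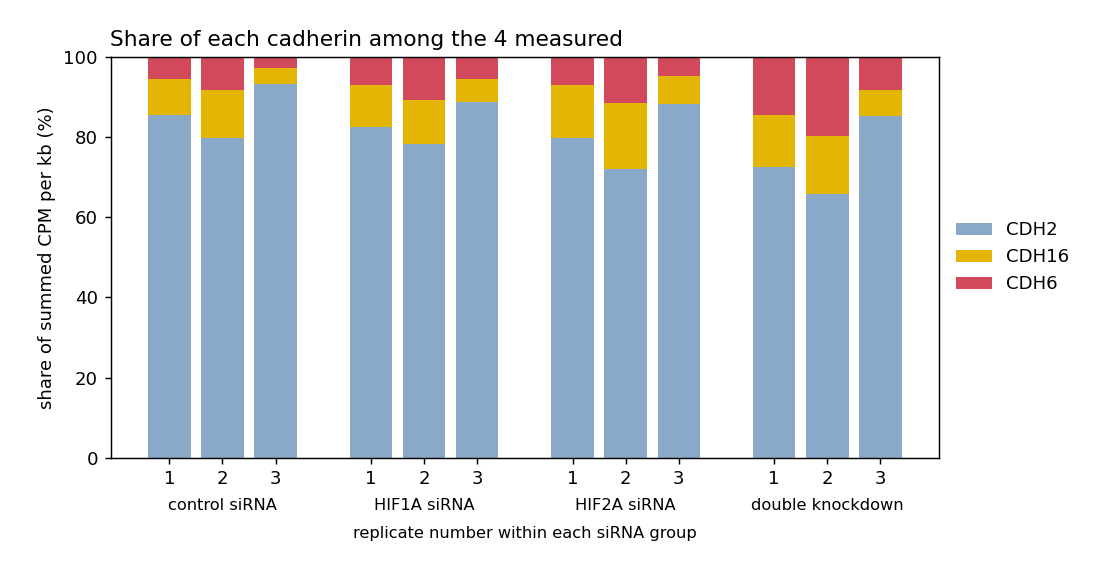
Share of CDH2, CDH16 and CDH6 in the summed CPM per kb of the 4 cadherins (vertical axis, %), with 1 bar for each of the 12 libraries, numbered by replicate within each siRNA group. CDH1, under 0.1%, is too small to be drawn, and the CDH6 part is 8.21 to 19.7% in the double knockdown against 2.78 to 8.01% with control siRNA.

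VIM encodes vimentin, the intermediate filament of mesenchymal cells and of most cultured cells. It measured 4075, 5433 and 4326 CPM with control siRNA, 4274, 4797 and 3737 CPM with HIF1A siRNA, 4210, 2927 and 3870 CPM with HIF2A siRNA, and 3726, 4117 and 3141 CPM in the double knockdown. Each double knockdown library was below the control of its number, at 91.4, 75.8 and 72.6% of it, and the groups overlapped. HIF2A siRNA replicate 2 stood apart with the lowest VIM of all libraries, at 53.9% of its control, and it was also the library with the highest CDH16. The log2 fold changes were -0.11 (SE 0.15), -0.32 (SE 0.151) and -0.34 (SE 0.144) with HIF1A siRNA, HIF2A siRNA and both (edgeR, BH-adjusted p = 0.95, 0.93 and 0.16). When HIF2A siRNA replicate 2 was left out, edgeR called 4 members in the double knockdown, with VIM and CDH16 beside CDH6 and ZEB2. That library belongs to neither group of the comparison with control siRNA. In that fit the log2 fold change of CDH16 was 0.453 against 0.457 in the main fit, with an SE of 0.13 against 0.156.

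ZEB2 is a zinc-finger repressor of epithelial genes and the transcription factor of the set that was called in the double knockdown. It measured 70.1, 52.3 and 74.1 CPM with control siRNA and 45.8, 49.6 and 62.1 CPM with HIF1A siRNA. With HIF2A siRNA it measured 58.2, 54.7 and 70.1 CPM, and in the double knockdown 46.8, 37.6 and 55.9 CPM. Each double knockdown library was below the control of the same number, at 66.8, 71.9 and 75.5% of it, but double knockdown replicate 3 was above control replicate 2, so that the ranges overlapped. The level in the double knockdown was 0.713 of control, a log2 fold change of -0.49 (SE 0.117, 95% confidence interval -0.74 to -0.24; edgeR, BH-adjusted p = 0.016).

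HIF1A siRNA alone gave a log2 fold change of ZEB2 of -0.32 (SE 0.131) and HIF2A siRNA alone -0.09 (SE 0.131), neither of which passed the test (edgeR, BH-adjusted p = 0.6 and 0.97). The difference between these single siRNAs was -0.23 (95% confidence interval -0.51 to 0.06) and was not called. The double knockdown differed from HIF1A siRNA by -0.17 (SE 0.118) and from HIF2A siRNA by -0.39 (SE 0.117), without a call for either (edgeR, BH-adjusted p = 0.62 and 0.084), and the interaction was -0.08 (95% confidence interval -0.43 to 0.28). The fall of ZEB2 in the double knockdown lost its call in 8 of 22 alternatives, all 8 of them edgeR fits. These were the fit without the replicate block (BH-adjusted p = 0.39), those without control replicate 1 or 3 (0.077 and 0.052), those without any 1 of the 3 double knockdown libraries (0.053 to 0.085), and those without replicate 1 or 3 of every group (0.12 and 0.2).

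**Figure D3:**
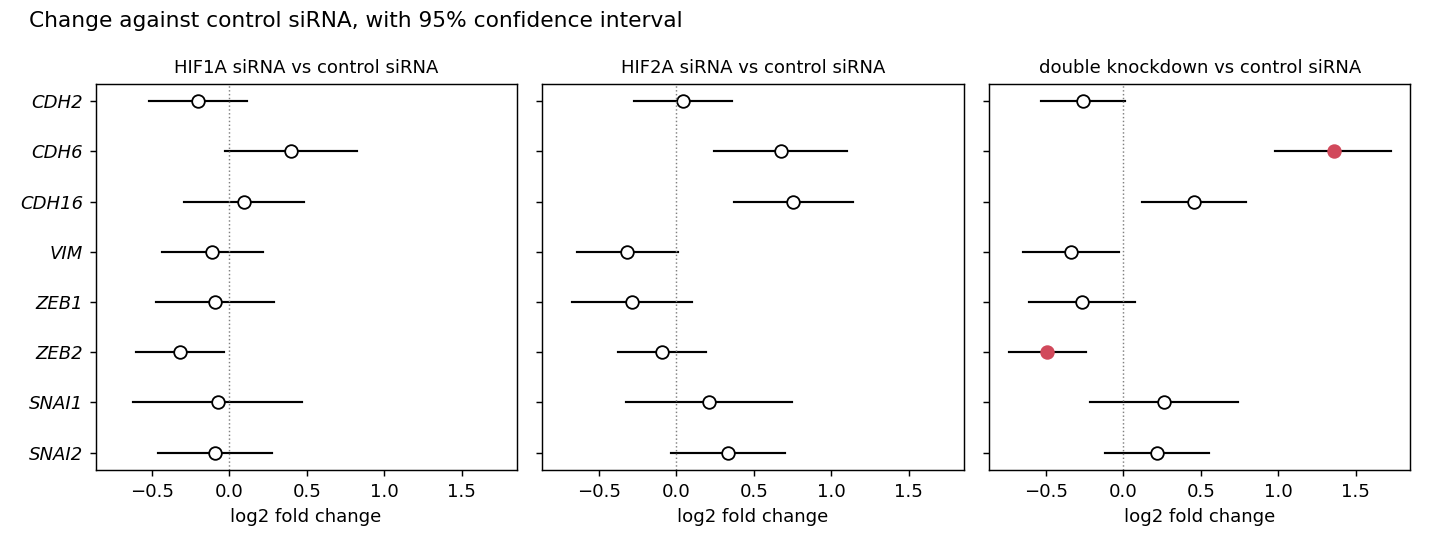
Log2 fold change against control siRNA (horizontal axes) of the 8 tested genes (rows) for HIF1A siRNA, HIF2A siRNA and the double knockdown. Bars are 95% confidence intervals and filled points have a BH-adjusted p under 0.05; the 2 filled points are CDH6 (1.36) and ZEB2 (-0.49), both in the double knockdown.

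HIF binds DNA at a short core, ACGTG or GCGTG, and ZEB and SNAI proteins bind the E-box letters CACCTG or CAGGTG. The promoter of ZEB2, the repressor called as lower, was therefore searched for these letters on both strands. It is shown beside that of VIM, the most abundant member. The sequences are the 250 bases before the annotated RefSeq start in GRCh38.p14, on the strand of the gene and 5′ to 3′, with HIF core letters of either strand in capitals. Windows were given for 4 of the 10 genes (CDH2, VIM, ZEB1 and ZEB2).
ZEB2, chr2:144520120-144520369, minus strand: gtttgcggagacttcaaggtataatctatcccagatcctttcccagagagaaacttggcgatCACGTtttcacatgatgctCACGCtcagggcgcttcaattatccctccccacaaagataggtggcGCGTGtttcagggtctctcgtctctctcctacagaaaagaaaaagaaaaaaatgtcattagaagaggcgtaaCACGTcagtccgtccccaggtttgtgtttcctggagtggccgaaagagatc
VIM, chr10:17227991-17228240, plus strand: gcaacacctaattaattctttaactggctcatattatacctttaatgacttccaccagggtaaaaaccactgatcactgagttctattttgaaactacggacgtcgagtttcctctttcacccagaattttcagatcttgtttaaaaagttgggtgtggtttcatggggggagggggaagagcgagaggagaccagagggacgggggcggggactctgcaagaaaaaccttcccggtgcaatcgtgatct
The ZEB2 window held 4 HIF cores, which began 188, 169, 123 and 51 bases before the start, and no E-box. The VIM window held neither. Windows of genes not called held them too: of 7 ZEB1 windows 3 held HIF cores and 2 E-boxes, and of 2 CDH2 windows 1 held a HIF core. For comparison, 43.2% of all 35116 windows of this length held at least 1 HIF core and 17.5% an E-box. Such letters are a description of the sequence and not a measurement of binding.

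ZEB1, the close relative of ZEB2, measured 21.8, 16.2 and 31.2 CPM with control siRNA, 16.5, 18.3 and 30.7 CPM with HIF1A siRNA, 13.2, 18.0 and 25.4 CPM with HIF2A siRNA, and 17.2, 15.3 and 24.7 CPM in the double knockdown. All groups overlapped, and replicate 3 was the highest library of each. The log2 fold changes were -0.09 (SE 0.176), -0.29 (SE 0.177) and -0.26 (SE 0.16) in the order HIF1A, HIF2A and both (edgeR, BH-adjusted p = 0.96, 0.94 and 0.33). In the double knockdown the interval of ZEB1, -0.61 to 0.08, contains the estimate of ZEB2, so that the ZEB factors are not shown to differ from each other.

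SNAI1 and SNAI2 encode Snail and Slug, zinc-finger repressors that act early in EMT. SNAI1 was low, at 7.42, 6.72 and 7.63 CPM with control siRNA, 5.83, 4.603 and 11.7 CPM with HIF1A siRNA, 8.14, 6.23 and 11.8 CPM with HIF2A siRNA, and 7.83, 6.77 and 12.9 CPM in the double knockdown. SNAI2 measured 24.5, 28.1 and 32.2 CPM with control siRNA, 19.2, 25.8 and 37.4 CPM with HIF1A siRNA, 25.1, 28.9 and 58.9 CPM with HIF2A siRNA, and 23.0, 29.5 and 51.9 CPM in the double knockdown. For both genes replicate 3 was the highest library of every group, and in the HIF2A siRNA and double knockdown groups it alone lay above all control libraries in SNAI2. The log2 fold changes in the double knockdown were 0.26 (SE 0.224) for SNAI1 and 0.22 (SE 0.158) for SNAI2 (edgeR, BH-adjusted p = 0.51 and 0.43). TWIST1, a helix-loop-helix factor of the same programme, had no count in 12 of 12 libraries. For counting error alone this allows a level of up to 0.147 to 0.226 CPM per library (3 counts). Over the 12 libraries together it allows up to 0.0141 CPM.

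The replicate number carried much of the spread of these genes. On the log2(CPM + 0.5) scale it held 71.8% of the variance of CDH2 between the 12 libraries, 77.4% of that of ZEB1, 68.4% of SNAI1 and 75.3% of SNAI2, against 49.8% over all genes tested. The siRNA group held 57.2% in CDH6 and 47.4% in ZEB2, against 25.8% over all genes. VIM differed from the rest in that 51.4% of its variance belonged to neither. As means over the 4 groups, CDH2 was at 337, 324 and 493 CPM and SNAI2 at 23.0, 28.1 and 45.1 CPM in replicates 1, 2 and 3, whereas CDH6 was highest in replicate 2 (73.8, 117 and 61.6 CPM). What the replicate numbers differ in was not given in the sources used here.

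**Figure D4:**
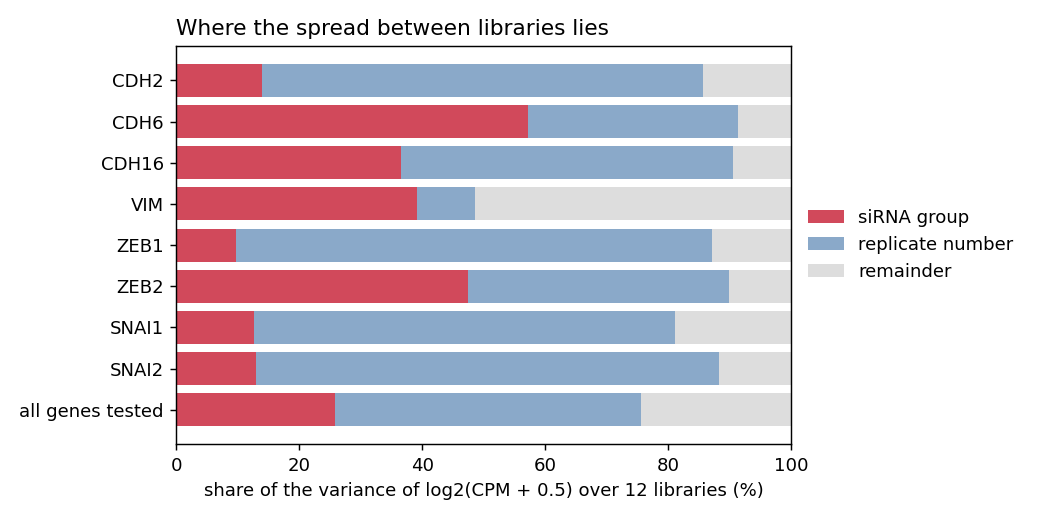
Share (horizontal axis, %) of the variance of log2(CPM + 0.5) over 12 libraries that lay between siRNA groups, between replicate numbers and in the remainder, for each tested gene and over all genes tested. CDH6 (57.2%) and ZEB2 (47.4%) have the widest siRNA parts, and in ZEB1, SNAI2, CDH2 and SNAI1 the replicate part is over 68%.

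Genes with the most similar pattern were sought by Pearson's r of log2 CPM over the 12 libraries, after the mean of each replicate number was subtracted. The points share libraries and depth, so r is a description. CDH6 was most like GPC4, a heparan sulfate proteoglycan of the cell surface (r = 0.995, 59.9 to 192 CPM), and PTPRD, a receptor tyrosine phosphatase (r = 0.981). ZEB2 was most like ARSJ (r = 0.985) and API5 (r = 0.976), and CDH2 was most like HSP90B1 (r = 0.986) and EPB41L2 (r = 0.972). VIM was most like MYL12A, a myosin light chain (r = 0.975), and NSL1 (r = 0.973), and CDH16 was most like UBE2R2 (r = 0.944) and GPR56 (r = 0.943). The nearest genes to ZEB1 were FNBP1L (r = 0.931) and TTL (r = 0.925), those to SNAI1 were FANCF (r = 0.917) and LOC100505783 (r = 0.909), and those to SNAI2 were ZNF468 (r = 0.879) and TIMM10B (r = 0.866).

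Genes around these members were counted in 5 lists. Of 18 further cadherins only CDH4, CDH13 and CDH24 had enough counts to be tested, so that CDH2, CDH4, CDH6, CDH16 and CDH24 were the listed cadherins above 1 CPM on average. CDH4, R-cadherin, 1 of the 3 tested, rose in the double knockdown (3.86% of all genes were called as higher) from 18.7 ± 4.76 to 29.8 ± 8.76 CPM (log2 0.66, SE 0.149; edgeR, BH-adjusted p = 0.011) and measured 28.4 ± 8.51 CPM after HIF1A siRNA and 24.9 ± 10.9 CPM after HIF2A siRNA, which were not called. CDH24 measured 17.4 ± 6.8 CPM with control siRNA and 25.9 ± 7.88 CPM in the double knockdown (BH-adjusted p = 0.12), and CDH13 stayed under 1 CPM on average in every group (BH-adjusted p = 0.6). CDH4 was called in 17 of 22 alternative fits, and not in the fit without the replicate block (edgeR, BH-adjusted p = 0.52).

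Catenins and junction adaptors, which tie cadherins to actin, gave 0 edgeR calls among 11 tested of 16 listed in each of the 3 comparisons with control siRNA, where 10.3% of all genes were called in the double knockdown. In the double knockdown their median log2 fold change was 0.06, against 0.00477 over all genes. The smallest adjusted p-values were those of CTNND1, p120-catenin (log2 -0.40, SE 0.123; edgeR, BH-adjusted p = 0.05, just above the threshold), MLLT4, afadin (-0.42, 0.062), VCL, vinculin (-0.38, 0.093), and CTNNA1, α-catenin (-0.22, 0.17). CTNND1 and MLLT4 were each called as lower in 8 of 22 alternative fits. The list as a whole had 0 to 3 calls over these fits, all lower.

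Of 22 epithelial genes 15 were tested. HIF1A siRNA lowered MUC1, a mucin of the apical membrane, from 99.2 ± 34.1 to 41.5 ± 13.5 CPM (log2 -1.24, SE 0.159; edgeR, BH-adjusted p = 0.00094), and HIF2A siRNA left it at 96.3 ± 30.4 CPM. Between these single siRNAs MUC1 differed by -1.20 on the log2 scale (SE 0.158; edgeR, BH-adjusted p = 0.0011). In the double knockdown 2 of the 15 epithelial genes rose and 3 fell, against 3.86% of all genes called as higher and 6.42% as lower, with a median log2 fold change of -0.00474 over the 15. MUC1 fell to 36.4 ± 13.5 CPM (log2 -1.48), KRT19, a keratin, fell from 93.3 ± 15.2 to 63.8 ± 16.9 CPM (log2 -0.57), and CLDN4, a tight junction claudin, fell from 108 ± 30.6 to 75.9 ± 10.2 CPM (log2 -0.49), with edgeR BH-adjusted p of 1.5e-05, 0.0035 and 0.022. CLDN2, the claudin of the leaky proximal tubule, rose from 77.1 ± 42.8 to 137 ± 84.9 CPM (log2 0.78, SE 0.194; edgeR, BH-adjusted p = 0.018). KRT18 also rose (log2 0.49; edgeR, BH-adjusted p = 0.027) and is named here after its value was seen, to complete the count. Without the replicate block edgeR called none of the 15 in any comparison, and MUC1 had a BH-adjusted p of 0.4 with HIF1A siRNA and of 0.088 in the double knockdown.

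Of 20 mesenchymal genes beside VIM and CDH2, 14 were tested. HIF1A siRNA lowered LOX, the collagen cross-linking lysyl oxidase, from 156 ± 38.8 to 53.1 ± 9.75 CPM (log2 -1.55, SE 0.136; edgeR, BH-adjusted p = 3.2e-05), and HIF2A siRNA left it at 146 ± 12 CPM. In the double knockdown 4 of the 14 fell and 0 rose, against 6.42% of all genes that fell. The median log2 fold change over the 14 was -0.41, against 0.00477 over all genes. S100A4, TNC, SPARC, MMP2 and LUM entered that median at 0.513 to 1.49 CPM with control siRNA and an SE of 0.621 to 0.76. LOX fell to 47.3 ± 14.8 CPM (log2 -1.74; edgeR, BH-adjusted p = 1.7e-06). LOXL2, a second cross-linking oxidase, fell from 938 ± 231 to 607 ± 157 CPM (log2 -0.63), and ITGA5, the fibronectin receptor subunit, fell from 521 ± 164 to 360 ± 120 CPM (log2 -0.54), with edgeR BH-adjusted p of 0.00064 and 0.0015. TAGLN, an actin-binding protein of contractile cells, fell from 79.8 ± 20.9 to 48 ± 4 CPM (log2 -0.71, SE 0.139; edgeR, BH-adjusted p = 0.0046). The number of mesenchymal genes called as lower was 1 to 6 over the 22 alternative fits, with 1 in the fit without the replicate block. The number called as higher was 0 to 1, with 1 when only the libraries compared were fitted and without double knockdown replicate 3. Summed levels of 7 fibroblast and pericyte markers, a list that includes COL1A1, were 30.5 to 47.9 CPM with control siRNA and 24.1 to 67.1 CPM in the double knockdown, and their part in these changes was not tested.

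**Figure D5:**
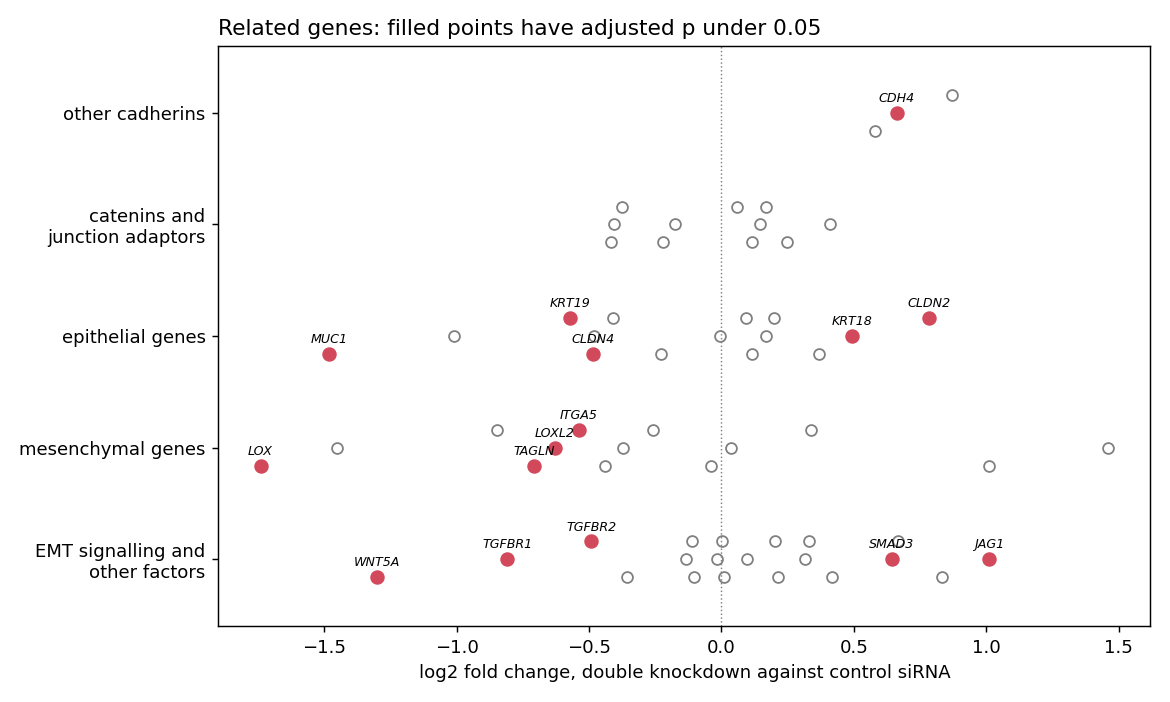
Log2 fold change of the double knockdown against control siRNA (horizontal axis) for each tested gene of 5 lists of related genes (rows). Filled, named points have a BH-adjusted p under 0.05, as had 10.3% of all 13000 genes: 1 of 3 further cadherins, 0 of 11 catenins and junction adaptors, 5 of 15 epithelial genes in both directions, 4 of 14 mesenchymal genes that all fell, and 5 of 20 signalling genes and other factors in both directions.

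Signalling genes and further transcription factors of EMT, mainly of the TGF-β, Wnt and Notch pathways, were tested for 20 of 24 listed. Neither single siRNA called any of them by edgeR, and the double knockdown called 2 as higher and 3 as lower, against 3.86 and 6.42% of all genes. JAG1, a Notch ligand, rose from 161 ± 3.56 to 324 ± 27 CPM (log2 1.01, SE 0.108; edgeR, BH-adjusted p = 2.3e-05), and measured 175 ± 13.1 CPM after HIF1A siRNA and 234 ± 34.1 CPM after HIF2A siRNA. SMAD3, an effector of TGF-β receptors, rose from 86.0 ± 14.2 to 134 ± 16.7 CPM (log2 0.64, SE 0.122; edgeR, BH-adjusted p = 0.0035). The receptor TGFBR1 fell from 51.8 ± 11.8 to 29.9 ± 9.8 CPM (log2 -0.81) and the ligand WNT5A from 9.55 ± 0.192 to 3.92 ± 0.811 CPM (log2 -1.30), with edgeR BH-adjusted p of 0.002 and 0.0014. TGFBR2, named after its value was seen, fell by 0.49 on the log2 scale (edgeR, BH-adjusted p = 0.034). JAG1 was called in 22 of 22 alternative fits and SMAD3 in 20, and the fit without the replicate block called 1 gene of the list as higher and 1 as lower.

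All values are RNA of bulk cultures, in which fewer cells of a kind and less RNA per cell cannot be told apart. Antisense genes that overlap CDH2, VIM, ZEB1 and ZEB2 were not analysed here. No row carried the symbols CDH2-AS1, VIM-AS1, ZEB1-AS1 or ZEB2-AS1. The libraries were made with a directional kit, but the strand setting of the counting is not given in the sources used here. Reads from the opposite strand can therefore not be told apart from those of the named gene.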

How the data were processed

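RNA-seq of 12 RCC4 libraries was used. Per the labels and the study's methods, the authors trimmed reads (Trim Galore 0.3.3), aligned them to hg19 (HISAT2 2.05), removed fragments that were not uniquely mapped (Picard 2.0.1), counted UCSC-defined genes in intersection-strict mode (HTSeq 0.5.4p3) and deposited raw counts for 23106 symbols per library. Uniquely mapped fragments alone were kept, which lowers counts of genes with close copies. The strand setting and any unassigned reads are not given in the sources used here.

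From these counts, edgeR 4.0.16 in R 4.3.3 was run with TMM scaling, its expression filter (10 counts at the median library size in at least 3 libraries, and a total of 15), the replicate number as a block, the quasi-likelihood test and Benjamini-Hochberg adjustment. The 9 libraries with control or single siRNA were fitted over 12830 genes, and all 12 over 13000 genes for the double knockdown and the interaction. SE is the log2 fold change divided by the square root of F, and confidence intervals are at 95%. Percentages within pairs are ratios of CPM. DESeq2 1.42.0, other filters, other scaling, other sets of libraries and each left-out replicate were alternatives. The main fit read at an adjusted p under 0.1 counts among these alternative fits and cannot lose a call. Some left-out libraries belong to neither group of a comparison. Tallies over the alternatives include both kinds.

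Replicates were paired by number because the study's methods pair conditions by biological replicate. Deviations from the group means were compared between libraries: those with the same number had r from 0.0991 to 0.813 across genes, and those with different numbers r from -0.724 to 0.527. Whether replicates were separate cultures is not stated further, so p-values measure the spread between these libraries, which may be technical.

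Members and lists were chosen with earlier results of these data known. Named list genes were those called with a single siRNA and, in the double knockdown, the 4 with the smallest adjusted p in each list; 1 gene of the mesenchymal list is not reported here, and the list's counts are given without it. Levels per kb used MANE Select lengths of the GENCODE v44 annotation of hg38, found for 17379 symbols, and promoters came from RefSeq, GRCh38.p14. The single-cell data of the study were not used here.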

Additional observations from a re-analysis of the deposited data

How the results depend on the processing

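Counting the 8 tested members, the number called with HIF2A siRNA against control was 0 and became 1 (CDH16) without the filter and with DESeq2. Between HIF1A and HIF2A siRNA it was 0 and became 1 (CDH16) without the filter, with DESeq2, with all 12 libraries in the fit and with only the libraries compared. For the double knockdown against HIF2A siRNA it was 1, became 2 (CDH6 and ZEB2) with DESeq2 and at an adjusted p under 0.1, and 0 with only the libraries compared. For the double knockdown against control it was 2 and became 4 (CDH6, CDH16, VIM and ZEB2) with only the libraries compared. Without the replicate block it was 0 for the double knockdown against control, HIF1A siRNA and HIF2A siRNA, and log2 fold changes of CDH6 kept their direction. With single replicates left out the counts were 0 to 1 for HIF1A siRNA, 0 to 2 for HIF2A siRNA, 0 to 1 between them, and 1 to 4, 0 to 1 and 0 to 1 for the double knockdown against control, HIF1A siRNA and HIF2A siRNA. CDH6 in the double knockdown was called in 21 of 22 alternatives (log2 1.23 to 1.62) and ZEB2 in 14. The cause of these moves was not tested.

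Reversals concerned values that were not called. SNAI1 with HIF1A siRNA was 0.0326 on the log2 scale without the replicate block. With replicates left out, HIF1A siRNA gave -0.45 to 0.15 for SNAI1, -0.298 to 0.0439 for SNAI2, -0.25 to 0.10 for ZEB1, -0.242 to 0.0606 for VIM and -0.10 to 0.29 for CDH16. HIF2A siRNA gave -0.18 to 0.26 for CDH2, -0.193 to 0.0234 for ZEB2 and -0.0659 to 0.405 for SNAI1. The double knockdown gave -0.00505 to 0.365 for SNAI2 and -0.16 to 1.91 for CDH13, and the interaction -0.20 to 0.53 for CDH6 and -0.30 to 0.12 for ZEB2.

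Over all genes the calls in the double knockdown against control were 1336, 302 to 2307 with replicates left out, 195 without the block and 1850 with DESeq2. The corresponding counts were 150, 66 to 219, 41 and 236 for HIF1A siRNA, 11, 1 to 33, 1 and 58 for HIF2A siRNA, 193, 90 to 351, 52 and 329 between the single siRNAs, 182, 26 to 442, 8 and 403 between the double knockdown and HIF1A siRNA, then 520, 158 to 672, 90 and 818 between it and HIF2A siRNA. Low counts kept CDH1 and TWIST1 out of the fits, and with 3 libraries per group a change such as that of ZEB2 depends on single libraries.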
